A study of Mus musculus with 8 samples.

Results

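Small nucleolar RNA host genes are transcription units whose introns hold small nucleolar RNAs (snoRNAs), and 10 of them were followed here by Ensembl gene identifier among 28785 genes listed in at least 1 library. They were Gas5 (ENSMUSG00000053332), Snhg1 (ENSMUSG00000108414), Snhg5 (ENSMUSG00000097195), Snhg6 (ENSMUSG00000098234), Snhg12 (ENSMUSG00000086290), Snhg15 (ENSMUSG00000085156), Snhg17 (ENSMUSG00000085385), Snhg18 (ENSMUSG00000096956), Snhg20 (ENSMUSG00000086859) and Zfas1 (ENSMUSG00000074578). All 10 were listed in all 4 libraries. Of these, 9 reached a mean of at least 1 RPKM (reads per kilobase of gene span, scaled to library size) and are counted beside the 4688 genes that did (the kept genes), while Snhg18 did not.

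The RNA came from mouse embryonic fibroblasts, cells grown from the connective tissue of mouse embryos, of genotype TSC2+/+ on the C57BL/6J strain. One group was heat shocked at 42 °C for 1 h with recovery at 37 °C for 3 h, and its control had no heat shock. Each was separated into a chromatin pellet and a cytoplasmic fraction, in buffers that held the RNA polymerase II inhibitor alpha-amanitin in all groups, and short RNA fragments were selected on a gel. This gave 1 RNA-seq library each for chromatin after heat shock, chromatin without it, cytoplasm after heat shock and cytoplasm without it. How many embryos or cultures stand behind a library is not given in the sources used here. With 1 library per group there is no replicate spread and no test. Values describe these libraries, and intervals are 95% intervals from read numbers that cover counting error only.

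A host gene is transcribed and spliced, its exons are joined into a long RNA, and a snoRNA is trimmed out of each debranched intron that holds one. Box C/D snoRNAs guide methylation of ribosomal RNA and box H/ACA snoRNAs guide conversion of its uridines to pseudouridine. The joined exons of several hosts code for no conserved protein, and those of Gas5 and Snhg1 are known to be broken down in the cytoplasm by nonsense-mediated decay, which needs translation. Gas5 also begins with a 5′ terminal oligopyrimidine (TOP) tract, a C followed by pyrimidines, which marks RNAs whose translation follows cell growth.

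RefSeq on build GRCm38.p6 placed all 10 symbols as long non-coding RNAs. It annotated 30 snoRNA genes inside 9 of them, with 8 each in Gas5 (chr1:161034601-161038539) and Snhg1 (chr19:8723487-8726326), 4 in Snhg12 (chr4:132308678-132311024), 3 in Zfas1 (chr2:167062934-167065862), 2 each in Snhg5 (chr9:88521052-88522897) and Snhg17 (chr2:158353700-158361522), and 1 each in Snhg6 (chr1:9942025-9944118), Snhg15 (chr11:6525591-6528760) and Snhg18 (chr15:32240568-32244662). The table places no snoRNA in Snhg20 (chr11:117076783-117078955). The snoRNA intervals took 21.8% of the Snhg1 span, 15.8% of Snhg12 and 14.5% of Gas5, and 8.47% or less of the others. The gene lengths implied by the RPKM values equalled the whole RefSeq span, introns included, for Snhg12, Snhg15 and Zfas1, and were within 4.54% of it for the others. For Gas5 and Snhg6 the smallest lengths that fit (2059 and 1080 bp) were doubled with their reads to come nearest that span. Their agreement was therefore chosen and does not bear on the point. By the other hosts the values are per kilobase of the whole gene, which was taken to hold for Gas5 and Snhg6. Whether intronic and snoRNA reads were counted to the host is not given in the sources used here. Among protein-coding neighbours in RefSeq, Mcmdc2 covered 75.5% of Snhg6 and Znfx1 covered 2.80% of Zfas1. Reads of those stretches may belong to either gene where strand was not used.

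The bases around the annotated starts are shown because TOP tracts and heat shock elements would lie there. RefSeq promoter windows were held for 9 hosts and for none at Snhg6, and Gas5 and Snhg17 each had a pair of starts, which gave 11 windows of 300 bases. Each of the next lines holds the 25 bases before and the 25 bases from an annotated start, 5′ to 3′, for the 4 windows with a TOP-like tract (a C and at least 4 pyrimidines, beginning at most 10 bases from the start, on the transcribed strand) and for Snhg1 and Zfas1 without one. Capitals mark the tract.
Gas5, chr1:161035141-161035190, plus strand: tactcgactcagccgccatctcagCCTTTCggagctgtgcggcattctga
Snhg12, chr4:132308653-132308702, plus strand: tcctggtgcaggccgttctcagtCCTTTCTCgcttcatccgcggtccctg
Snhg5, chr9:88522873-88522922, minus strand: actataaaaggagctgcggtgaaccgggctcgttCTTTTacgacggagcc
Snhg18, chr15:32244638-32244687, minus strand: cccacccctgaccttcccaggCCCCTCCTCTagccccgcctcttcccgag
Snhg1, chr19:8723462-8723511, plus strand: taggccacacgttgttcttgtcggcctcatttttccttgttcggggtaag
Zfas1, chr2:167062909-167062958, plus strand: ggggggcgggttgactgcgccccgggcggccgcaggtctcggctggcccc

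A TOP-like tract was thus found in 4 of 11 host windows, against 30.7% of all 32851 promoter windows. In Gas5 it began 1 base before the downstream start, and in Snhg12 it ran over 8 bases.

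Heat shock elements, the paired inverted repeats bound by heat shock factors, were searched as GAANNTTC or TTCNNGAA, both of which read the same on either strand, and the TATA box as TATAAA on the transcribed strand. Snhg5 and Snhg17 had the highest and the lowest heat shock ratio in chromatin among the 9 hosts with at least 1 RPKM, and their windows are shown whole, with both motifs in capitals.
Snhg5, chr9:88522848-88523147, minus strand: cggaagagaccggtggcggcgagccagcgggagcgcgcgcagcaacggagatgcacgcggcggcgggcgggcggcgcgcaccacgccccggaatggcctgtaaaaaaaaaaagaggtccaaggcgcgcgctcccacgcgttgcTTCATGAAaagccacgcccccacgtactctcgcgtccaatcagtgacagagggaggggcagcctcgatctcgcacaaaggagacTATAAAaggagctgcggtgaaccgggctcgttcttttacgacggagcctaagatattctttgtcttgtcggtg
Snhg17, chr2:158361460-158361759, minus strand: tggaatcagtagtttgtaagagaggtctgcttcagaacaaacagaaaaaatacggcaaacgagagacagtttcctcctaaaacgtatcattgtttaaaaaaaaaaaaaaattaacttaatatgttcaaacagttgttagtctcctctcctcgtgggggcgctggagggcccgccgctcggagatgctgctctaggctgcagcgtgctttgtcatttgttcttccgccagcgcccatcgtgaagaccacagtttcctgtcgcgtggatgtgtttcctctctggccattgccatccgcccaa

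The Snhg5 window held 1 heat shock element, 107 bases before the start, and a TATA box 23 bases before it. No other host window held either motif. Over all promoter windows 15.1% held such an element and 8.32% a TATA box, and a match of letters does not show binding.

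Inside Snhg20 RefSeq places the microRNA gene Mir6516. Its mature forms are shown since they are the small RNAs annotated in that host, with the seed, bases 2 to 8, in capitals. Their seeds differ, and their levels were not analysed here.
mmu-miR-6516-5p, chr11:117077370-117077391, plus strand: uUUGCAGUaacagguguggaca
mmu-miR-6516-3p, chr11:117077412-117077433, plus strand: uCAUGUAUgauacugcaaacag

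The libraries held 19536459 reads for chromatin after heat shock and 18364642 without it, and 11131382 for cytoplasm after heat shock and 8292312 without it, as implied by the RPKM values. The 10 hosts took 0.0465% of reads in chromatin after heat shock (exact interval 0.0456 to 0.0475), against 0.0369% in chromatin without it (0.0360 to 0.0378). In cytoplasm they took 0.00862% after heat shock (0.00809 to 0.00919), against 0.0131% without it (0.0124 to 0.0139). Summed over the hosts, the share of library reads was 1.26-fold higher after heat shock in chromatin (1.22 to 1.30) and 1.52-fold lower in cytoplasm (1.40 to 1.66). RPKM counts are scaled to the reads of 1 library, so an amount of RNA per cell was not measured. The share of each fraction in the cell was not measured either.

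In chromatin after heat shock, Snhg1 had the highest level per kilobase at 41.9 RPKM. It was followed by Snhg5 (28.3), Gas5 (24.7), Snhg12 (14.7), Snhg6 (12.0), Zfas1 (9.91), Snhg17 (8.07), Snhg15 (6.47), Snhg20 (5.39) and Snhg18 (0.150). With the doubled reads of Gas5 and Snhg6, only Snhg15 and Snhg20 were neighbours whose counting intervals overlapped. Without the doubling the Snhg6 interval is wider and would overlap that of Zfas1. Without heat shock the chromatin order was Snhg1 (24.7 RPKM), Gas5 (21.3), Snhg17 (12.9), Snhg5 (11.1), Snhg6 (10.2), Snhg12 (7.89), Snhg15 (6.46), Zfas1 (5.02), Snhg20 (3.67) and Snhg18 (0.306). Here Snhg5 and Snhg6, and Snhg12 and Snhg15, could not be ordered by their intervals.

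Snhg5 had the highest host level in cytoplasm, at 7.45 RPKM after heat shock and 11.6 RPKM without it. Next after heat shock were Snhg1 (6.17 RPKM), whose interval overlapped those of Snhg5 and Gas5, and Gas5 (5.54), which did not overlap Snhg12 below it. The other hosts were at 2.30 RPKM or less there, and from Snhg12 down to Snhg17 each interval overlapped the next. In cytoplasm without heat shock Gas5 (8.67 RPKM) and Snhg1 (8.57) overlapped each other, as did Snhg6 (4.58), Zfas1 (4.20) and Snhg12 (3.96). Snhg17 (1.33 RPKM) overlapped its neighbours Snhg15 (1.60) and Snhg20 (0.612), which did not overlap each other. Snhg17 thus stood near the top of the hosts in unstressed chromatin (12.9 RPKM) and near the bottom in unstressed cytoplasm (1.33 RPKM).

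**Figure D1:**
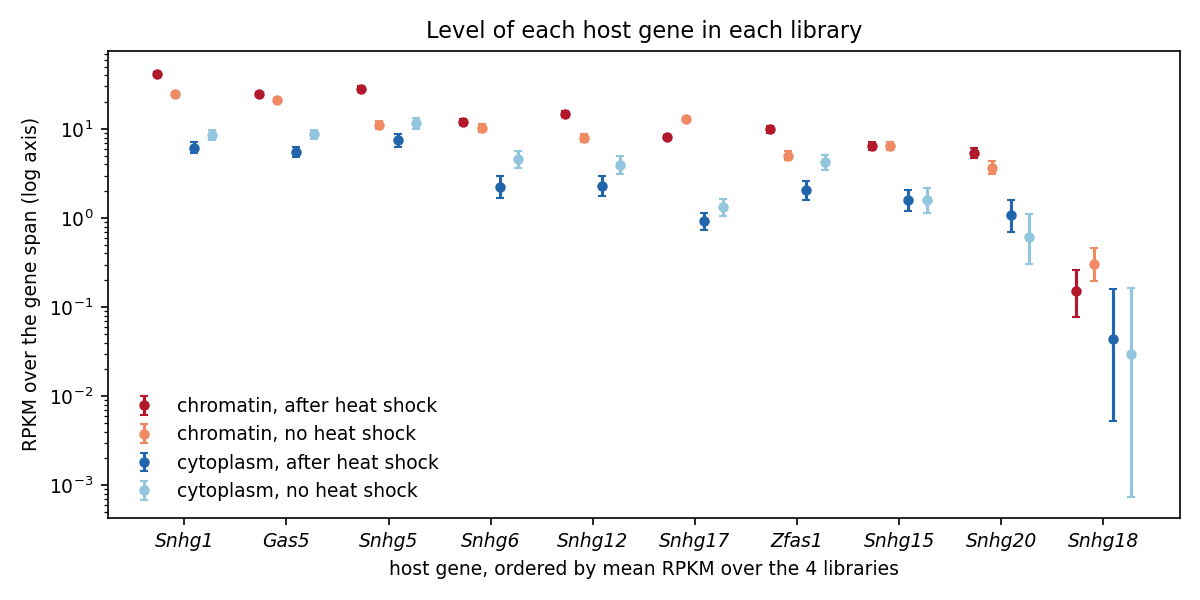
RPKM over the gene span (log axis) of the 10 host genes in each of the 4 libraries, 1 point per library with its exact 95% Poisson interval for counting error. Red and orange points (chromatin) lie above blue points (cytoplasm) for every host in the same condition except Snhg5 without heat shock, at 11.1 RPKM in chromatin and 11.6 RPKM in cytoplasm. Intervals of Gas5 and Snhg6 are drawn from doubled reads.

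The heat shock ratio in chromatin differed between hosts. The U50 snoRNA host Snhg5 had the highest ratio among the 9 at 2.54-fold, Zfas1, Snhg12 and Snhg1 were 1.69-fold to 1.97-fold higher, and Snhg17 was lower. Snhg5 had 28.3 RPKM (1039 reads) in chromatin after heat shock, against 11.1 RPKM (384 reads) without it, and its interval ran from 2.26 to 2.87. Zfas1, the host of the Snord12 snoRNAs, had 9.91 RPKM (567 reads) after heat shock, against 5.02 RPKM (270 reads) without it, a 1.97-fold difference (1.70 to 2.29). Snhg12, which holds the H/ACA snoRNAs Snora16a, Snora44 and Snora61 and the C/D snoRNA Snord99, had 14.7 RPKM (673 reads) against 7.89 RPKM (340 reads), or 1.86-fold (1.63 to 2.13). In Snhg1, the host of Snord22, the values were 41.9 RPKM (2430 reads) after heat shock and 24.7 RPKM (1348 reads) without it, or 1.69-fold (1.58 to 1.81). These 4 hosts stood above 84.0% or more of the kept genes in this comparison.

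The hosts with small differences in chromatin included Gas5, whose RNA is named for its rise in growth-arrested cells. Its level was 24.7 RPKM (1988 reads) after heat shock, against 21.3 RPKM (1612 reads) without it, 1.16-fold (1.09 to 1.24). Snhg6, the host of Snord87, had 12.0 RPKM (506 reads) against 10.2 RPKM (404 reads), 1.18-fold (1.03 to 1.35). Snhg20 was at 5.39 RPKM (228 reads) after heat shock and 3.67 RPKM (146 reads) without it, 1.47-fold (1.19 to 1.82). Snhg15, whose human counterpart hosts SNORA9, was at 6.47 RPKM (401 reads) and 6.46 RPKM (376 reads), a ratio of 1.00 (0.869 to 1.16).

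Snhg17, whose human counterpart hosts SNORA71 snoRNAs, was the 1 host of the 9 with an interval wholly below 1 in chromatin. It had 8.07 RPKM (1243 reads) after heat shock, against 12.9 RPKM (1870 reads) without it, which is 1.60-fold lower (1.49 to 1.72). It stood above 11.4% of kept genes. Snhg18, the host of Snord123, had 12 reads after heat shock and 23 without it, 2.04-fold lower with an interval of 0.974 to 4.50, so no direction could be told at this depth.

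Counted on log2(RPKM + 1), where 1 RPKM is added to each value, 1 of 9 hosts (Snhg5) was at least 2-fold higher in chromatin after heat shock, against 10.4% of 4635 kept genes. None of the 9 was at least 2-fold lower, against 4.66%. These host shares lie near the background. Counting intervals lay wholly above 1 for 7 of 9 hosts, against 46.8% of genes, and wholly below 1 for 1 of 9, against 31.6%. The Snhg6 interval among the 7 rests on doubled reads and would span 1 without the doubling. Reads of the other kept genes were not doubled. The host median of the log2 ratio was 0.45, against 0.12 over all kept genes and 0.24 over the 1475 kept genes with spans of 1000 to 10000 bp. Of the 9 hosts, 5 were above the median of that span class. The quartile range of these log2 ratios was 0.61 among the hosts, 0.77 over all kept genes and 0.78 in the span class. The hosts were thus not more spread than genes at large in this comparison.

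The direction of the smaller differences depended on the scale. With both chromatin libraries set to the same RPKM sum, every chromatin fold is divided by 1.56. Snhg1, Snhg5, Snhg12 and Zfas1 then still had log2 ratios above 0 and Snhg17 below 0, whereas Gas5, Snhg6 and Snhg20 turned to below 0 (-0.42, -0.39 and -0.078). So they did with the 10 highest genes left out of the scale, and Snhg15, near 0 as deposited, was also below 0 on both. On both of these scales no host was at least 2-fold higher and Snhg17 was at least 2-fold lower (-1.25 and -1.15). With the same RPKM sum 6.34% of kept genes were at least 2-fold higher and 18.0% lower, and without the 10 highest genes 5.98% and 13.0%, so 1 of 9 lower is near the background. A change of scale leaves the contrast of plain ratios between hosts as it is. The Snhg5 ratio exceeded that of Snhg17 by 4.07-fold (3.55 to 4.67), that of Snhg15 by 2.54-fold (2.11 to 3.05) and that of Gas5 by 2.19-fold (1.92 to 2.51).

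**Figure D2:**
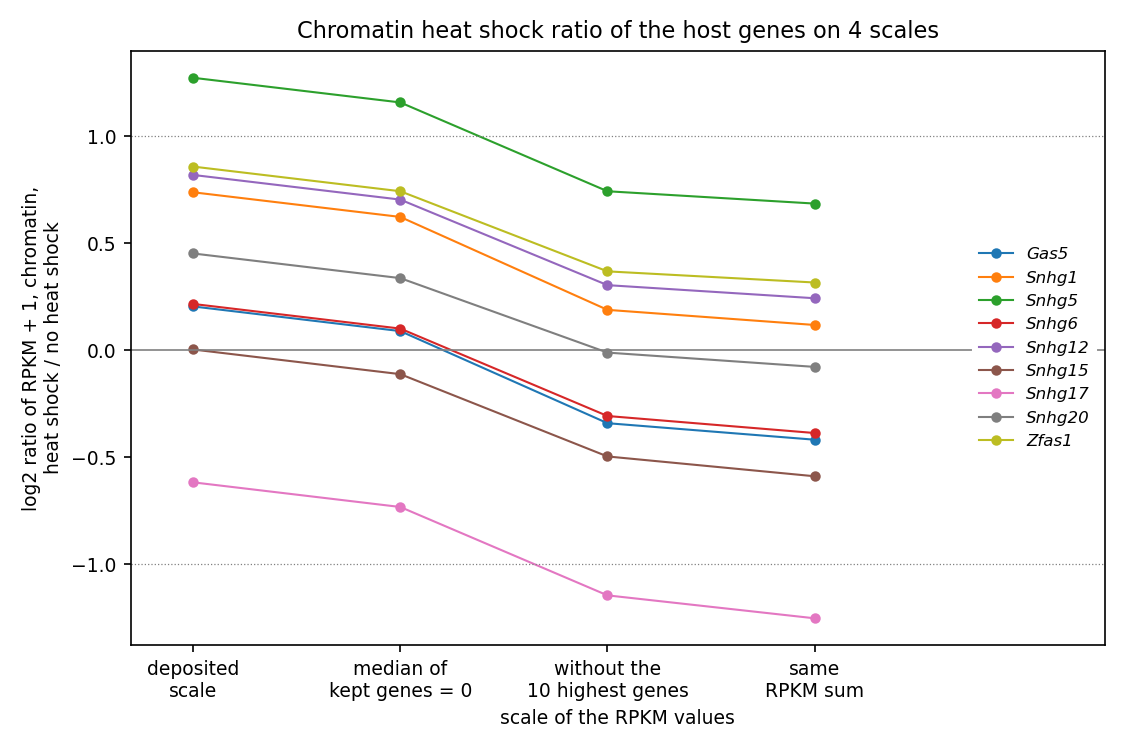
The log2 ratio of RPKM + 1 in chromatin, heat shock over no heat shock, for 9 hosts (lines) on 4 scales of the RPKM values (horizontal axis), with thin grey lines at 2-fold. The lines keep their order from scale to scale while all shift downward, with Snhg5 at 1.27 on the deposited scale and 0.68 with the same RPKM sum, and Snhg17 at -0.62 and -1.25.

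In cytoplasm most hosts had lower values after heat shock. Zfas1 and Snhg6 were lowest relative to the control, at 2.04-fold lower each, and 7 of 9 hosts had intervals wholly below 1. Zfas1 had 2.05 RPKM (67 reads) in cytoplasm after heat shock, against 4.20 RPKM (102 reads) without it (interval 1.49 to 2.82 for the lower fold). Snhg6 had 2.25 RPKM (54 reads) against 4.58 RPKM (82 reads), with an interval of 1.43 to 2.93. Snhg12 was 1.72-fold lower (1.21 to 2.46), at 2.30 RPKM (60 reads) after heat shock and 3.96 RPKM (77 reads) without it.

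Gas5 and Snhg5 had almost the same cytoplasmic ratio. Gas5 was at 5.54 RPKM (254 reads) after heat shock, against 8.67 RPKM (296 reads) without it, 1.56-fold lower (1.32 to 1.86). Snhg5 was at 7.45 RPKM (156 reads) against 11.6 RPKM (181 reads), also 1.56-fold lower (1.25 to 1.94). Their ratios differed by 1.00-fold with an interval of 0.765 to 1.32, although the same genes differed by 2.19-fold in chromatin. Snhg17 was 1.44-fold lower (1.05 to 1.98), at 0.923 RPKM (81 reads) after heat shock and 1.33 RPKM (87 reads) without it. Snhg1 was 1.39-fold lower (1.14 to 1.69), with 6.17 RPKM (204 reads) against 8.57 RPKM (211 reads).

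For the remaining hosts the cytoplasmic reads gave no direction. Snhg15 had 1.59 RPKM (56 reads) after heat shock and 1.60 RPKM (42 reads) without it, a ratio of 0.993 (0.654 to 1.52). Snhg20 had 1.08 RPKM (26 reads) against 0.612 RPKM (11 reads), 1.76-fold with an interval of 0.841 to 3.95. Snhg18 had 2 reads against 1 read, a ratio of 1.49 with an interval of 0.0776 to 87.9.

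No host was at least 2-fold higher in cytoplasm after heat shock, against 3.4% of 4505 kept genes, and none at least 2-fold lower, against 2.44%. Intervals wholly below 1 were found for 7 of 9 hosts, against 64.5% of these genes, and wholly above 1 for 0 of 9, against 8.21%. The host median log2 ratio was -0.56, against -0.25 over all kept genes and -0.32 in the span class. On plain RPKM ratios the medians lay closer, at -0.64 for the hosts and -0.53 for kept genes, with 4 of 9 hosts above the latter. Without the added 1 RPKM, Snhg6 and Zfas1 passed 2-fold (log2 ratios -1.03 each), against 15.7% of kept genes. The interval shares are near the background in this library pair.

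**Figure D3:**
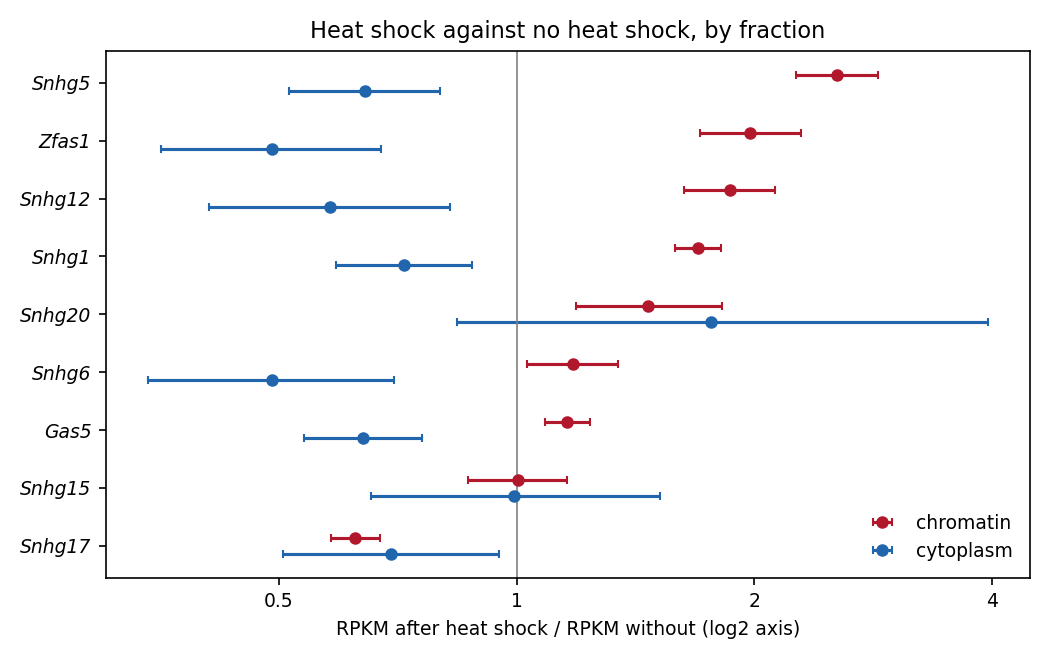
RPKM after heat shock divided by RPKM without it (log2 axis) for 9 hosts in chromatin (red) and cytoplasm (blue), with exact 95% intervals for counting error, ordered by the chromatin ratio. Snhg18, with 12 and 23 chromatin reads, is not drawn. For Snhg5, Zfas1, Snhg12, Snhg1, Snhg6 and Gas5 the red interval lies right of 1 and the blue one left of it. Intervals of Snhg6 and Gas5 are drawn from doubled reads, and the red interval of Snhg6 would span 1 without the doubling.

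**Figure D4:**
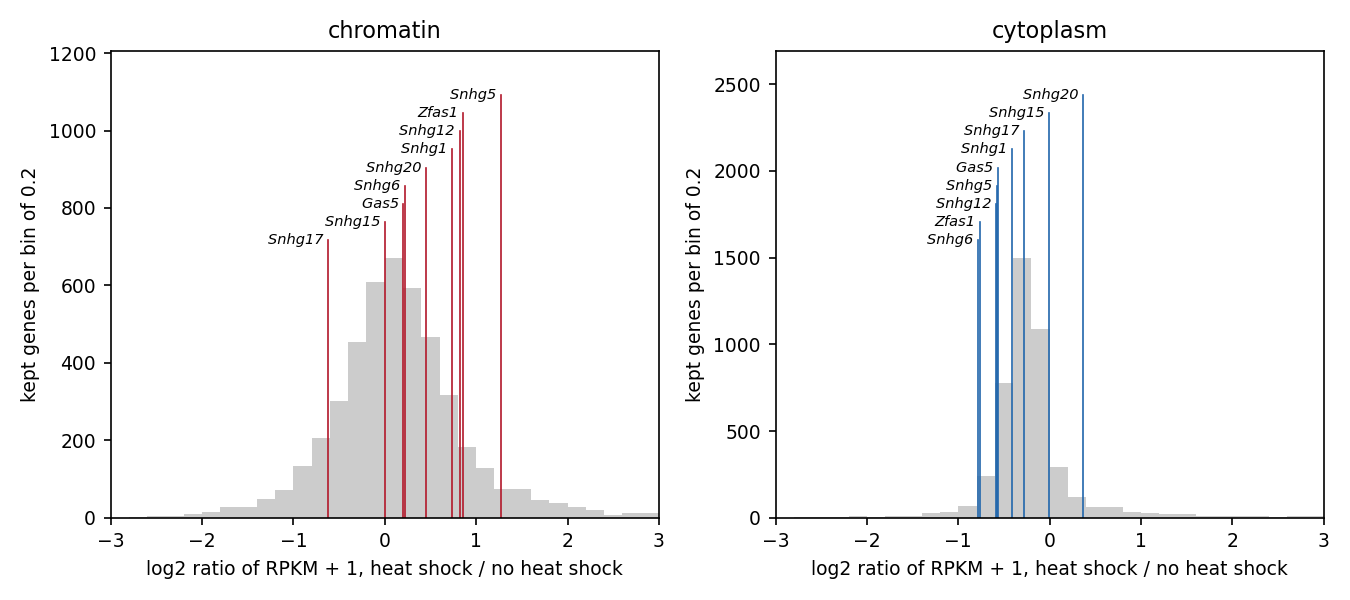
Number of kept genes per bin of the log2 ratio of RPKM + 1, heat shock over no heat shock, in chromatin (left, 4635 genes) and cytoplasm (right, 4505 genes), with a labelled line for each of 9 hosts. In chromatin the hosts spread over both sides of the centre, with Snhg5 above 93.0% of genes and Snhg17 above 11.4%. In cytoplasm Snhg6 and Zfas1 lie above 4.22% and 4.44% of genes, and Snhg20 above 92.8%.

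The heat shock ratios of the fractions were then set against each other within each host. Opposite directions with intervals apart from 1 were seen in Gas5, Snhg1, Snhg5, Snhg6, Snhg12 and Zfas1, or 6 of 9 hosts, against 27.8% of 4473 kept genes. For Snhg6 this call rests on doubled reads. Its chromatin interval of 1.03 to 1.35 is wider without the doubling and would then span 1, so Snhg6 would not be called. The share over kept genes rests on reads that were not doubled. By direction alone, 7 of 9 hosts were higher in chromatin and lower in cytoplasm, against 46.5% of these genes. The host added here is Snhg15, whose ratios were 1.00 (0.869 to 1.16) in chromatin and 0.993 (0.654 to 1.52) in cytoplasm. Both of its intervals span 1, so it shows no direction. Zfas1 had a difference of plain log2 ratios of 2.01 (1.52 to 2.50), from 0.98 in chromatin and -1.03 in cytoplasm. Snhg5 had 1.99 (1.63 to 2.34), from 1.35 and -0.64, so these 2 hosts could not be ordered, and on log2(RPKM + 1) Snhg5 was the higher (1.85 against 1.63). Snhg12 had 1.68 (1.16 to 2.20), Snhg6 1.26 (0.73 to 1.79), Snhg1 1.23 (0.94 to 1.53) and Gas5 0.86 (0.60 to 1.12). These 6 differences stayed above 0 on all 4 scales, but Gas5 and Snhg6 were lower in both fractions after heat shock with the same RPKM sum or without the 10 highest genes.

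For the other hosts the interval of the difference held 0. It was 0.01 (-0.60 to 0.63) in Snhg15, -0.15 (-0.60 to 0.30) in Snhg17 and -0.26 (-1.32 to 0.80) in Snhg20. In Snhg17 both fractions were lower after heat shock, with log2 ratios of -0.68 in chromatin and -0.53 in cytoplasm. On log2(RPKM + 1), 4 of 9 hosts had a difference of at least 1 toward chromatin, against 16.5% of kept genes, and 0 of 9 toward cytoplasm, against 4.52%. With the same RPKM sum 2 of 9 passed toward chromatin, against 9.70% of genes, and on plain RPKM ratios 5 of 9, against 34.4%. The host median was 1.00, against 0.37 over all kept genes and 0.54 in the span class. The quartile range of these differences was 1.32 among the hosts, 0.81 over all kept genes and 0.87 in the span class.

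Chromatin against cytoplasm uses the same 4 libraries, so these values restate the same measurements from the other side. The hosts and the kept genes were chosen by mean RPKM over all 4 libraries, so a high chromatin level alone could bring a gene in. Snhg20 came in this way, with 5.39 and 3.67 RPKM in chromatin and 1.08 and 0.612 RPKM in cytoplasm after heat shock and without it. Its place in the counts below is therefore no support. After heat shock each of the 9 hosts was at least 2-fold higher in chromatin, against 45.8% of 4575 kept genes, and 0 of 9 lower, against 6.93%. Without heat shock 6 of 9 were at least 2-fold higher in chromatin, against 32.4% of 4512 genes, and 0 of 9 lower, against 11.7%. On plain RPKM ratios the higher hosts were again 9 of 9 and 6 of 9, against 63.7% and 49.3% of genes. Host medians of the log2 ratio were 1.97 after heat shock and 1.21 without it, against 0.92 and 0.58 over all kept genes and 0.44 and -0.07 in the span class. Every host was above the span class median in both conditions, though Snhg5 without heat shock only just, at -0.057 against -0.072. Above the median of all kept genes were 9 of 9 hosts after heat shock and 7 of 9 without it. Centred on the median gene, 5 of 9 hosts passed 2-fold after heat shock, against 8.57% of genes, and 1 of 9, Snhg17, without it, against 12.1%. With the same RPKM sum 9 of 9 passed in each condition, against 75.8% of genes after heat shock and 73.9% without it.

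Snhg17 had a plain RPKM ratio of chromatin to cytoplasm of 8.74-fold (6.98 to 11.1) after heat shock and 9.71-fold (7.83 to 12.2) without it. After heat shock its interval overlapped that of Snhg1, and on log2(RPKM + 1) Snhg1 (2.58) was above Snhg17 (2.24). Snhg20 stood at 5.00-fold (3.32 to 7.81) and 5.99-fold (3.25 to 12.3), and Snhg15 at 4.08-fold (3.08 to 5.50) and 4.04-fold (2.93 to 5.70). For these 3 hosts the intervals of both conditions overlapped.

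The remaining hosts had higher ratios after heat shock, with intervals apart. Snhg1 was 6.79-fold (5.88 to 7.87) higher in chromatin than in cytoplasm after heat shock and 2.88-fold (2.49 to 3.35) without it. Snhg12 had 6.39-fold (4.90 to 8.47) against 1.99-fold (1.55 to 2.59), and Snhg6 5.34-fold (4.03 to 7.21) against 2.22-fold (1.75 to 2.86). Gas5 was at 4.46-fold (3.91 to 5.10) and 2.46-fold (2.17 to 2.79). Zfas1 was at 4.82-fold (3.74 to 6.31) after heat shock and 1.20-fold (0.948 to 1.52) without it. Snhg5 had 3.79-fold (3.20 to 4.52) against 0.958-fold (0.801 to 1.15). Zfas1 and Snhg5 were therefore the hosts with no direction between fractions in unstressed cells on the deposited scale. With the same RPKM sum their unstressed log2 ratios were 1.64 and 1.50, and centred on the median gene they were -0.37 and -0.64.

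The hosts lay closer together after heat shock. The plain ratio of chromatin to cytoplasm of Snhg17 exceeded that of Snhg5 by 2.30-fold (1.74 to 3.05) after heat shock, against 10.1-fold (7.67 to 13.4) without it. Contrasts of plain ratios do not move with the scale. The quartile range of the log2 ratios was 0.45 after heat shock and 0.68 without it among the hosts, and 1.10 and 1.35 over all kept genes. Snhg18 had 12 chromatin and 2 cytoplasmic reads after heat shock (3.42-fold, 0.761 to 31.4) and 23 and 1 without it (10.4-fold, 1.69 to 427.8).

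**Figure D5:**
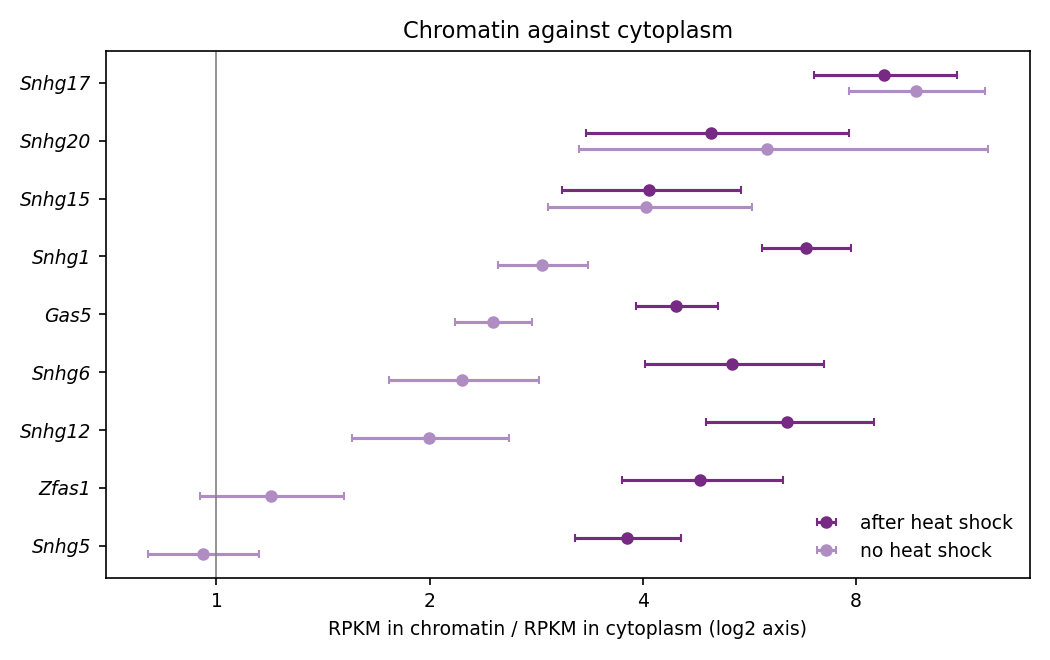
RPKM in chromatin divided by RPKM in cytoplasm (log2 axis) for 9 hosts after heat shock (dark) and without it (light), with exact 95% intervals for counting error, ordered by the ratio without heat shock. Light points run from 0.958 for Snhg5 to 9.71 for Snhg17, and dark points from 3.79 to 8.74.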

How the data were processed

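Per the labels, RNA-seq libraries of chromatin and cytoplasm with and without heat shock had 1 deposited RPKM value per Ensembl gene. The submitters' processing notes name cutadapt, STAR and the mouse build GRCm38 and give no version. How reads were assigned to genes (tool, annotation release, strand, shared reads) was not stated in labels or headers, and genes without a read are not listed. Immunoprecipitated and input libraries for m6A were not analysed here.

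Gene lengths, read numbers and library totals were worked out from the RPKM values, which were whole multiples of 1 read, by greatest common divisors (20000 pairs, tolerance 0.002), and the recovery was tested on simulated data. The recovered reads summed to 98.4% to 99.7% of the totals. For Gas5 and Snhg6 the smallest solution was doubled, because the doubled length was nearest to the RefSeq span. This changes no single fold and narrows their intervals. Without it the Snhg6 interval in chromatin, whose lower end is 1.03, would span 1. Reads of genes other than the hosts were not doubled. Without it the summed hosts took 0.0401% of reads in chromatin after heat shock, and their summed folds were 1.28 in chromatin and 1.50-fold lower in cytoplasm.

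Ratios were taken as log2((RPKM + 1)/(RPKM + 1)) for genes that averaged 1 RPKM or more across all 4 libraries and had reads in the libraries compared, and values at least 2-fold apart were counted. The added 1 RPKM understates differences of low genes. Single folds are plain RPKM ratios with exact 95% Clopper-Pearson intervals from the reads, and differences between log2 ratios have normal intervals from the same reads. Since reads lack molecular identifiers and may repeat a molecule, intervals cover counting error only. Alternatives were other pseudocounts, no filter and 3 other scales. Python 3.11.15, numpy 2.4.6, pandas 2.3.3, scipy 1.17.1 and matplotlib 3.10.9 were used.

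The hosts, lists and settings were chosen with earlier results of these data known. All 10 hosts are named, by the symbols given with the identifiers. No row of the RefSeq table used pairs an Ensembl identifier with a symbol, so lists of other genes planned by symbol (snoRNA genes, other hosts, snoRNP proteins, decay factors, ribosomal proteins, fibroblast, fraction and heat shock markers) and genes of like pattern were not analysed here. The span class of 1000 to 10000 bp was chosen after the lengths were recovered.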

Additional observations from a re-analysis of the deposited data

Results flagged for a closer look

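For 6 of 9 hosts the counting interval of the heat shock ratio lay wholly above 1 in chromatin and wholly below 1 in cytoplasm, against 27.8% of kept genes. Of these, Snhg6 was called on doubled reads, and its chromatin interval would span 1 without the doubling. The share over kept genes rests on reads that were not doubled. With the same RPKM sum Gas5 (-0.42) and Snhg6 (-0.39) were below 0 in chromatin too, as they were without the 10 highest genes (-0.34 and -0.31). With 1 library per group this difference was not tested, and the intervals cover counting error only. Chromatin log2 ratio minus cytoplasm log2 ratio, on plain RPKM, gave 2.01 in Zfas1, 1.99 in Snhg5, 1.68 in Snhg12, 1.26 in Snhg6, 1.23 in Snhg1 and 0.86 in Gas5. As ratios of folds these were 4.03 (2.87 to 5.67), 3.96 (3.10 to 5.06), 3.21 (2.23 to 4.60), 2.40 (1.66 to 3.47), 2.35 (1.92 to 2.88) and 1.81 (1.51 to 2.17). The median difference over all 4473 kept genes was 0.70 on plain RPKM, not far below that of Gas5, and 0.37 on log2(RPKM + 1). Reads of overlapping neighbours in Snhg6 and Zfas1 and of snoRNAs inside the hosts may be among the host reads, and their part was not tested. The share of one fraction carried into the other was not measured.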

How the results depend on the processing

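Values are host counts out of 9 and host medians of log2 ratios. In chromatin after heat shock, the same RPKM sum gave 0 hosts at least 2-fold higher, 1 lower and a median of -0.078, and leaving the 10 highest genes out of the scale gave 0, 1 and -0.011, so the sign of the median turned. In cytoplasm the plain RPKM ratio gave 2 hosts at least 2-fold lower, against 15.7% of genes. For chromatin over cytoplasm after heat shock, the median was 2.98 with the same RPKM sum and 1.06 when centred on the median of all genes, which left 5 hosts at least 2-fold higher. Without heat shock the median was 2.73 with the same RPKM sum, 1.73 without the 10 highest genes and 0.63 when centred, where 1 host passed. The chromatin minus cytoplasm difference had a median of 0.47 with 2 hosts past 2-fold under the same RPKM sum, and 0.58 without the 10 highest genes. The other 73 of 90 recomputed counts and medians stayed within 1.5 times the count, or moved the median by less than the typical arm of the hosts' counting intervals. They include 9 hosts at least 2-fold higher in chromatin than cytoplasm without heat shock under the same RPKM sum, and a centred cytoplasm median of -0.31. Subtracting the reads of snoRNA genes from host reads was not run, since those rows were not matched here. Cytoplasmic depth limits Snhg20 (26 and 11 reads) and Snhg18 (2 and 1).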
